A study of Mus musculus with 6 samples.

Results

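The mitochondrial carriers of the SLC25 family were described in cultured basal cells, the stem cells of the airway epithelium, taken as primary cells from tracheas of wild-type mice. Members were the rows whose gene symbol begins with Slc25a and a number, and 48 of the 56748 genes in the table met this rule, among them the Slc25a5 pseudogene Slc25a5-ps. RNA was sequenced after 4 days of culture from 3 libraries of cells given UK-5099, which blocks the mitochondrial pyruvate carrier, and from 3 of cells that received A8301, DMH-1 and Y-27632 together. Of these, A8301 inhibits the type I receptors for TGF-beta, DMH-1 inhibits those for BMP, and Y-27632 is a kinase inhibitor. It is not stated whether Y-27632 was present with UK-5099 too, or what else was in the medium. With no untreated group among them, a difference between these groups leaves unsaid which condition moved. Nothing states that replicates were separate animals or cultures, and p-values therefore measure only the spread between these libraries, which may be technical. Each gene's level is a normalized count, that is its reads divided by a size factor per library, and a difference is a log2 fold change, UK-5099 minus the 3 inhibitors, of the normalized count plus 1.

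SLC25 carriers are nuclear-encoded proteins, most of them in the inner mitochondrial membrane, that exchange ADP, ATP, phosphate, carboxylates, amino acids and cofactors between the cytosol and the matrix. They are built from repeats of a pair of membrane-spanning helices. After synthesis they reach the inner membrane through the TOM pore, small TIM chaperones and the TIM22 complex. The pyruvate carrier that UK-5099 blocks, made of Mpc1 and Mpc2, belongs to another family. In epithelial cells the carriers link the matrix to cytosolic lipid synthesis, to the shuttles that carry reducing equivalents, and to cofactor supply.

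The libraries held between 19909589 and 27037795 recovered gene reads. All 5 markers of airway basal cells were detected, with summed levels of 190810 to 211350 normalized counts under UK-5099 and 55428 to 61054 under the 3 inhibitors, and 4 of them were higher and Ngfr lower under UK-5099. The 5 secretory cell markers summed to 1119 to 1732 normalized counts under UK-5099 and to 4633 to 4995 under the 3 inhibitors, and the 3 of them that were tested were all lower. Fibroblast markers summed to at most 14.6 and endothelial markers to at most 3.71 normalized counts in any library, and Col1a2 and Cdh5 were at 0 in every library. Leukocyte markers summed to 486 to 695 normalized counts under UK-5099 and 461 to 501 in the other group, nearly all from Cd68, which did not pass, with Ptprc and Cd3e at most 2.68. Multiciliated markers summed to 78.0 to 83.3 and 46.5 to 81.3, and of the 2 tested Rsph1 was 1.76-fold higher. Brown fat markers summed to 76.1 to 98.6 and 38.4 to 52.6, and Cidea was 2.23-fold higher while Ucp1 was at 0 under UK-5099. Muscle markers summed to at most 15.2. In a bulk library fewer cells of a type and less RNA per cell cannot be told apart, and the part of these marker differences in the values below was not tested. Xist was higher under UK-5099 (log2 fold change 0.77) and 4 Y-linked genes were lower (-1.10 to -0.60), and the part of this difference in the X-linked members Slc25a5, Slc25a14, Slc25a43 and Slc25a53 was not tested either.

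The carriers did not move as a block. Slc25a4, which encodes an ADP/ATP carrier, the citrate carrier Slc25a1 and the peroxisomal carrier Slc25a17 were higher under UK-5099. The ATP-Mg/phosphate carrier Slc25a23, the pyrimidine nucleotide carrier Slc25a36, the uncoupling-protein-like Slc25a30 and the choline carrier Slc25a48 were lower. Of the 48 members, 41 averaged at least 10 normalized counts over the 6 libraries and were tested, and each of these 41 also averaged at least 10 in both groups. With p-values adjusted by Benjamini-Hochberg and a threshold of 0.05 in limma, 9 of the 41 were higher, 15 were lower and 17 did not pass. The background was 27.2% higher and 26.6% lower among the 15704 genes tested, 53.8% in all, so the share of members called in either direction, 58.5%, was near that of all genes. By direction, 22.0% of the tested members were higher and 36.6% lower, and this difference from all genes was not tested. Members called with at least a 1.5-fold change numbered 8, of which 6 were lower, against 21.7% of all genes tested in either direction and 11.2% lower. Values of the groups did not overlap for 28 of 41 members, against 60.8% of all genes. The median log2 fold change was -0.08 for the members and 0.00 for all genes. When each library was centred on its median, or rescaled by its upper quartile, 8 members were higher and 21 lower, and of all called genes the share that were higher went from 50.6% to 39.1% and 39.4%.

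**Figure D1:**
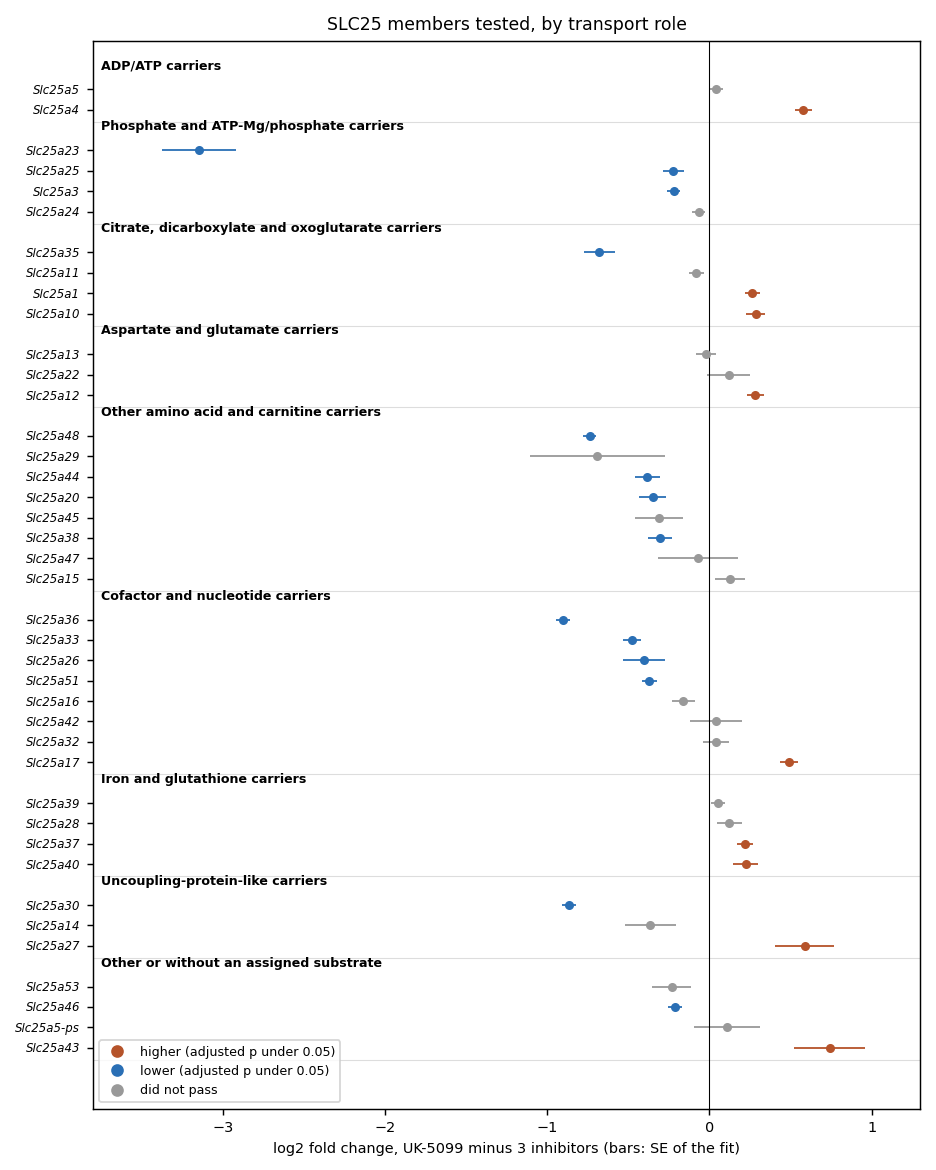
Log2 fold change (UK-5099 minus 3 inhibitors) of 40 of the tested SLC25 members on the x axis, grouped by transport role, with bars for the standard error of the fit. Orange points passed the test as higher (9), blue as lower (14) and grey did not pass (17), and Slc25a23 lies far to the left at -3.15.

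Per length, the family was led by Slc25a5 in both groups. Levels per length are normalized counts per kilobase of the union of exons, from the GENCODE M21 annotation of the earlier build GRCm38 matched by gene identifier, which may differ from the annotation behind the counts. Slc25a5 stood at 9952 ± 211 per kilobase under UK-5099 and 9663 ± 296 under the 3 inhibitors (SD, n = 3), which was 39.8 ± 0.44% and 38.0 ± 0.79% of the family's total. Slc25a48 held the second place under the 3 inhibitors at 1986 ± 12.0 per kilobase and the seventh under UK-5099 at 1190 ± 38.0. With the 3 inhibitors, Slc25a48 and the phosphate carrier Slc25a3 (1908 ± 14.0) stood close together, and using the longest transcript as the length, a choice made after the data were seen, put Slc25a3 ahead. Slc25a4 took the opposite course, with 2388 ± 155 per kilobase under UK-5099, the second in the order, and 1596 ± 44.3 under the 3 inhibitors, the fourth. With UK-5099 the levels of Slc25a24 (1227 ± 37.5), Slc25a39 (1214 ± 43.9) and Slc25a48 (1190 ± 38.0) lay within their spread of each other. The whole family took 0.297 ± 0.0013% of a library's normalized counts under UK-5099 and 0.318 ± 0.0032% in the other group.

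**Figure D2:**
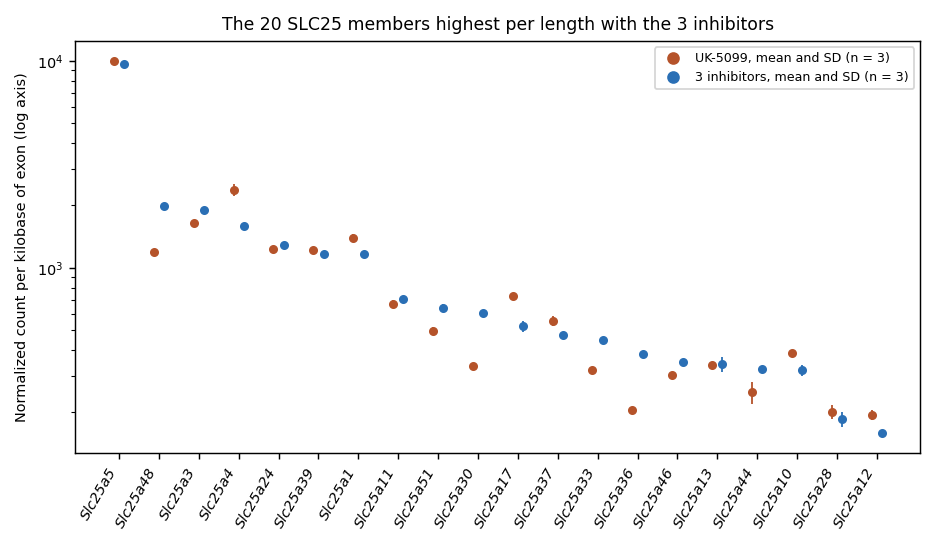
Mean normalized count per kilobase of exon (log y axis) with SD over 3 libraries for the 20 members highest under the 3 inhibitors, in orange for UK-5099 and blue for the 3 inhibitors. Slc25a5 stands alone near 9952 and 9663, and Slc25a48, Slc25a30 and Slc25a36 have their blue points well above the orange ones.

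The ADP/ATP carriers, which bring ADP into the matrix and release ATP, had 1 member that was higher and 1 that did not pass. That was 50% of the tested members called, against 53.8% of all genes. Slc25a4, the form known from heart and muscle, had 5973, 5638 and 5244 normalized counts in UK-5099 libraries 1, 2 and 3, and 3718, 3874 and 3676 in the 3-inhibitor libraries. The lowest UK-5099 library lay above the highest 3-inhibitor library, with a log2 fold change of 0.58 ± 0.05 (SE; limma adjusted p = 2.08e-06). Slc25a5, the form of dividing cells, had 16782, 16184 and 16179 normalized counts under UK-5099 and 15583, 16465 and 15668 under the 3 inhibitors. Its groups overlapped and it did not pass the test (0.04 ± 0.04, adjusted p = 0.410). Its sign turned when libraries were rescaled or centred. Slc25a5-ps, a pseudogene of Slc25a5 with which reads can be shared, so that its level is uncertain, stood between 59.4 and 95.6 normalized counts in the 6 libraries. Slc25a31, the form of male germ cells, was below the filter at 0 to 1.03. The 250 bases before the RefSeq start of Slc25a4 (chr8:46211063-46211312 of GRCm38.p6, minus strand) are shown because this was the ADP/ATP carrier that passed the test, with capitals for matches to CCAAT and to CCGGAAG, the core of ETS factor sites, on either strand.
Slc25a4: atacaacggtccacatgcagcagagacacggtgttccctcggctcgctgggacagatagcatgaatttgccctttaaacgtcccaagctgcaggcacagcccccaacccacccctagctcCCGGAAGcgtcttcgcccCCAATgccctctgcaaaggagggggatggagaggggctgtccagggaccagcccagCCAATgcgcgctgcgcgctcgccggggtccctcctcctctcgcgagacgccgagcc
The CCAAT matches end 108 and 52 bases before the start, and the CCGGAAG match ends 124 bases before it.

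Of 4 tested carriers of phosphate 3 were lower and 1 did not pass (75% called, against 53.8% of all genes). Slc25a3, which brings in the phosphate used for ATP synthesis, had 8924, 8964 and 9369 normalized counts under UK-5099 and 10646, 10501 and 10622 under the 3 inhibitors. The groups did not overlap, and the difference was small (-0.22 ± 0.04, adjusted p = 0.000453, limma). A gene annotated as antisense to Slc25a3 lies in the table, and the sources used here do not say whether reads were counted by strand. Slc25a23, Slc25a24 and Slc25a25 encode calcium-regulated carriers that exchange ATP-Mg for phosphate and so set the adenine nucleotide pool of the matrix. Slc25a23 had the largest change of the family, with 20.3, 15.8 and 10.96 normalized counts under UK-5099 and 138, 146 and 144 under the 3 inhibitors. Every UK-5099 library was far below every 3-inhibitor library, 8.85-fold lower on the log2 scale with a pseudocount of 1 (-3.15 ± 0.23, adjusted p = 4.70e-07). The UK-5099 values rest on 20, 17 and 9 reads. Slc25a25 was 1.17-fold lower (-0.22 ± 0.07, adjusted p = 0.0142), and leaving out UK-5099 replicate 1 (adjusted p = 0.0641) or 3-inhibitor replicate 1 (0.0560) ended its call. The alternatives spanned adjusted p-values of 0.00164 to 0.0641. Slc25a24 did not pass (-0.07 ± 0.04), although its groups did not overlap, and it passed as lower after rescaling or centring (adjusted p = 0.00661 and 0.00600). The upstream sequence of Slc25a23 (chr17:57059864-57060113, GRCm38.p6, minus strand, the first of 2 starts in the table) is given as that of the member with the lowest log2 fold change, with capitals for its CCAAT match, which ends 207 bases before the start.
Slc25a23: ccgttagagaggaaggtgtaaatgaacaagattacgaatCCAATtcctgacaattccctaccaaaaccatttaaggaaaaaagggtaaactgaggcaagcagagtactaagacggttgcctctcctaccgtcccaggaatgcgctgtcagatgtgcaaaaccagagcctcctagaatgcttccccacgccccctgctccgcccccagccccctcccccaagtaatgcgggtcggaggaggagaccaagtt

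Among carriers of citrate, other carboxylates and oxoglutarate, 2 were higher, 1 lower and 1 did not pass (75% called, against 53.8% of all genes). Slc25a1 exports the citrate from which cytosolic acetyl-CoA is made. It had 3069, 2868 and 3106 normalized counts under UK-5099 and 2435, 2530 and 2565 under the 3 inhibitors, with no overlap (0.26 ± 0.05, adjusted p = 0.000454, limma). Slc25a10, which exchanges malate and succinate for phosphate, was 1.22-fold higher (0.28 ± 0.06). Slc25a11, the oxoglutarate-malate carrier of the malate-aspartate shuttle, had a log2 fold change of -0.08 ± 0.05 and did not pass, and it passed as lower after rescaling or centring (-0.17 in both). Slc25a35, placed here by its likeness to carboxylate carriers, had 156, 154 and 158 normalized counts under UK-5099 and 240, 244 and 269 under the 3 inhibitors. Its groups lay clear of each other (-0.68 ± 0.10, adjusted p = 0.000102). Slc25a21 and Slc25a34 were below the filter.

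The aspartate/glutamate carriers, which send aspartate out of the matrix for the malate-aspartate shuttle, had 1 member that was higher and 1 that did not pass. With the glutamate carriers counted in, 1 of 3 tested members was higher and 2 did not pass (33.3% called, against 53.8% of all genes). Slc25a12 (aralar) had 1485, 1336 and 1451 normalized counts under UK-5099 and 1147, 1195 and 1167 under the 3 inhibitors, higher in every UK-5099 library (0.28 ± 0.05, adjusted p = 0.000796, limma). Slc25a13 (citrin) had 1298, 1324 and 1218 under UK-5099 and 1428, 1248 and 1229 under the 3 inhibitors, and the groups overlapped (-0.02 ± 0.06, adjusted p = 0.807). The glutamate carrier Slc25a22 did not pass (0.12 ± 0.13), and its relative Slc25a18 was below the filter at 2.74 to 7.42 normalized counts.

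Of 8 tested carriers of other amino acids, carnitine and choline, 4 were lower and none higher, and 4 did not pass. That was 50% called, all lower, against 53.8% of all genes called and 26.6% lower. Slc25a48, which carries choline into mitochondria, had 3960, 3924 and 4162 normalized counts under UK-5099 and 6739, 6707 and 6659 under the 3 inhibitors. The libraries of each group lay close together and the groups far apart (-0.74 ± 0.04, adjusted p = 4.56e-08, limma). Slc25a44, the carrier of branched-chain amino acids, was 1.31-fold lower (-0.38 ± 0.08). Slc25a20, which brings acylcarnitines in for fatty acid oxidation, was 1.27-fold lower (-0.35 ± 0.08), and Slc25a38, which supplies glycine for haem synthesis, was 1.24-fold lower (-0.30 ± 0.07). The ornithine carrier Slc25a15 had a log2 fold change of 0.13 ± 0.09 and passed as higher only without 3-inhibitor replicate 1 (0.23, adjusted p = 0.0458, against 0.289 with all libraries). Slc25a29, a carrier of basic amino acids, varied from 8.35 to 32.9 normalized counts among UK-5099 libraries (-0.69 ± 0.41, adjusted p = 0.185). It passed as lower without UK-5099 replicate 3 (-1.16, adjusted p = 0.0101). Slc25a45 (-0.31 ± 0.15) passed as lower without that library (adjusted p = 0.0219) and after rescaling or centring (0.0403 and 0.0388), and did not pass otherwise (0.0967). Slc25a47, known from liver, had -0.07 ± 0.25 on 24.7 to 41.1 normalized counts.

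All 9 carriers of cofactors and nucleotides were tested, and 5 were lower, 1 higher and 3 did not pass. That was 66.7% called and 55.6% lower, against 53.8% of all genes called and 26.6% lower. The pyrimidine nucleotide carriers Slc25a36 and Slc25a33, which supply the matrix with nucleotides for its own DNA and RNA, were both lower. Slc25a36 had 1874, 2015 and 1985 normalized counts under UK-5099 and 3644, 3650 and 3703 under the 3 inhibitors, with no overlap and a 1.87-fold difference (-0.91 ± 0.04, adjusted p = 1.83e-08, limma). Slc25a33 was 1.39-fold lower (-0.48 ± 0.06, adjusted p = 2.52e-05). Their upstream sequences are set side by side because both genes were lower under UK-5099, with capitals for the E-box CACGTG and for CCAAT (chr9:97111042-97111291 and chr4:149774268-149774517, GRCm38.p6, both on the minus strand).
Slc25a36: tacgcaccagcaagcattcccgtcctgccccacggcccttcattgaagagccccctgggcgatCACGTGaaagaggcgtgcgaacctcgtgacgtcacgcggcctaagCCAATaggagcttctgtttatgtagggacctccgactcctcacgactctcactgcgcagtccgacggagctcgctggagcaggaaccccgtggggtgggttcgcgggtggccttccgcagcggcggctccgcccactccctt
Slc25a33: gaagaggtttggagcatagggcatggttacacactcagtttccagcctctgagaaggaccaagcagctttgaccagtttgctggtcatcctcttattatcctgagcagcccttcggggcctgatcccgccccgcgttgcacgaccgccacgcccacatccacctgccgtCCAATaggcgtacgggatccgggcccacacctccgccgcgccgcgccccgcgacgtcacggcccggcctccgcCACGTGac
Both windows hold 1 match to each motif, and the E-box ends 182 bases before the start of Slc25a36 and 3 bases before that of Slc25a33.

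Among the other cofactor carriers, Slc25a51, the NAD carrier, was 1.29-fold lower (-0.37 ± 0.05, limma adjusted p = 5.10e-05). Slc25a26, which carries S-adenosylmethionine, was 1.32-fold lower (-0.40 ± 0.13, adjusted p = 0.0189). Leaving out 3-inhibitor replicate 1 or 3 ended its call (0.0686 and 0.0602), and the alternatives spanned adjusted p-values of 0.00585 to 0.0686. Slc25a17, a carrier of CoA, FAD and NAD in the peroxisomal membrane, was the member of this group that was higher, by 1.41-fold (0.49 ± 0.05, adjusted p = 1.28e-05). The members linked to CoA transport, Slc25a42 (0.04 ± 0.16) and Slc25a16 (-0.16 ± 0.07), and the folate and FAD carrier Slc25a32 (0.04 ± 0.08) did not pass. Slc25a16 passed as lower after rescaling or centring (adjusted p = 0.00987 and 0.00978, against 0.0814).

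Of the 4 carriers of iron and glutathione, 2 were higher and 2 did not pass (50% called, against 53.8% of all genes). Slc25a37 (mitoferrin-1), which brings iron into the matrix for haem and iron-sulphur clusters, was 1.17-fold higher (0.22 ± 0.05, adjusted p = 0.00226, limma), and its relative Slc25a28 (mitoferrin-2) did not pass (0.12 ± 0.08). Slc25a39, the main glutathione carrier, had 0.05 ± 0.04 and did not pass. The related Slc25a40 was 1.17-fold higher (0.22 ± 0.08, adjusted p = 0.0299). This call was among the least stable, since it ended after rescaling (adjusted p = 0.157) or centring (0.163). It also ended when UK-5099 replicate 1 (0.0545), UK-5099 replicate 3 (0.0725), 3-inhibitor replicate 1 (0.0611) or 3-inhibitor replicate 3 (0.112) was left out.

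Of the 3 uncoupling-protein-like members 1 was lower, 1 higher and 1 did not pass (66.7% called, against 53.8% of all genes). Slc25a30, also called KMCP1, had 1523, 1515 and 1530 normalized counts under UK-5099 and 2802, 2721 and 2800 under the 3 inhibitors. Both groups were tight and well separated, with a 1.82-fold difference (-0.87 ± 0.04, adjusted p = 1.77e-08, limma). Slc25a27 (UCP4, known from neurons) had 105, 103 and 147 normalized counts under UK-5099 and 86.6, 64.3 and 83.1 under the 3 inhibitors. UK-5099 library 3 was the highest, and the call (0.59 ± 0.18, adjusted p = 0.0166, limma) was lost when it was left out (0.42, adjusted p = 0.0532) or when 3-inhibitor replicate 2 was (0.46, adjusted p = 0.0753). The alternatives spanned adjusted p-values of 0.00952 to 0.0753. Slc25a14 (UCP5) did not pass (-0.37 ± 0.16, adjusted p = 0.0711), although its groups did not overlap. It passed as lower after rescaling or centring (adjusted p = 0.0300 and 0.0297) and without UK-5099 replicate 2 (0.0217).

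Among the 4 remaining members, Slc25a43, whose substrate is not assigned, had 46.7, 48.3 and 49.9 normalized counts under UK-5099 and 35.0, 23.2 and 28.3 under the 3 inhibitors. It was higher in every UK-5099 library (0.74 ± 0.22, adjusted p = 0.0133, limma), and leaving out 3-inhibitor replicate 2 ended the call (0.60, adjusted p = 0.0566). The alternatives spanned adjusted p-values of 0.00945 to 0.0566. Slc25a46, an outer-membrane protein that takes part in mitochondrial fission, was 1.16-fold lower (-0.21 ± 0.05). Slc25a53 (-0.23 ± 0.12) did not pass, but passed as lower after rescaling or centring (adjusted p = 0.0423 and 0.0392) and without 3-inhibitor replicate 2 (0.0354), and Slc25a5-ps had 0.11 ± 0.20. Below the filter were 7 members. Slc25a41 was at 0 in every library, Slc25a2, Slc25a31 and Slc25a54 were at 0 in all UK-5099 libraries and at most 2.74 elsewhere, and Slc25a18, Slc25a21 and Slc25a34 did not exceed 7.42 normalized counts.

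**Figure D3:**
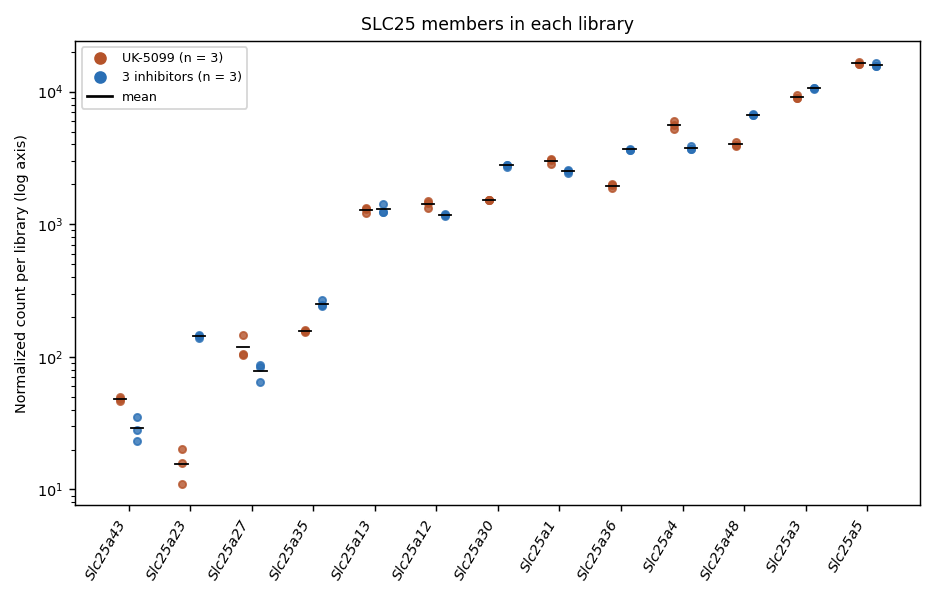
Normalized count in each of the 6 libraries (log y axis) for the 13 members given in full, ordered by mean, under UK-5099 in orange, the 3 inhibitors in blue and a bar for each mean. The groups overlap for Slc25a13 and Slc25a5 and are apart for the other 11 members, most of all for Slc25a23.

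Precision followed level. The 18 tested members averaging 1000 or more normalized counts had a median standard error of 0.05 on the log2 scale, the 16 between 100 and 1000 one of 0.09, and the 7 under 100 one of 0.22. Of these, 13, 8 and 3 were called, beside 53.8% of all genes tested. The share of all genes called at each level was not computed, so nothing is read from these counts.

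Motifs in the 250 bases before each start were counted in the RefSeq table, which matched 36 of the 48 members with 46 starts. The motifs were chosen after the values were seen, and searched on both strands. The E-box CACGTG was in 8 of 46 member starts (17.4%), against 6.02% of all 32851 starts. It was in the windows of 7 members, of which Slc25a1 was higher, Slc25a33 and Slc25a36 lower, Slc25a13, Slc25a14 and Slc25a15 did not pass and Slc25a31 was below the filter. CCAAT was in 45.7% of member starts and 33.9% of all starts, and CCGGAAG in 13.0% and 6.91%. The motif of nuclear respiratory factor 1 was in 2 member starts (4.35%, against 3.74% of all), those of Slc25a3 and Slc25a31. AAGGTCA, a motif of oestrogen-related receptors, was in 1 (2.17%, against 4.08%), that of Slc25a34. A match describes letters only.

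The ratio within a library was compared for pairs of carriers with the same or a near substrate, a measure that needs no gene length. The scaling of a library alters it only through the 1 added to each normalized count. Of 8 pairs set up, 7 could be computed, since Slc25a18 was below the filter, and 5 had no overlap between groups. Single genes had none in 60.8% of cases, and the share among ratios of other gene pairs was not computed, so nothing is read from this count. The smallest p that 3 against 3 allows is 0.1 (exact permutation test, two-sided), which is 0.14 after adjustment over the 7 pairs, so no pair could pass 0.05. Slc25a5 stood at 2.92 times the count of Slc25a4 under UK-5099 and at 4.23 times under the 3 inhibitors. The log2 ratio was 1.49, 1.52 and 1.63 in the UK-5099 libraries and 2.07, 2.09 and 2.09 in the others, a difference of -0.54 ± 0.04 (SE). For Slc25a36 to Slc25a33 the log2 ratio was 1.70 ± 0.05 under UK-5099 and 2.13 ± 0.03 under the 3 inhibitors (SD, n = 3), a difference of -0.43 ± 0.03. For Slc25a13 to Slc25a12 it went from 0.15 ± 0.14 under the 3 inhibitors to -0.15 ± 0.12 under UK-5099. Differences for Slc25a24 to Slc25a25 (0.16 ± 0.08, SE) and Slc25a40 to Slc25a39 (0.17 ± 0.05) were smaller. The mitoferrins, Slc25a37 to Slc25a28 (0.10 ± 0.08), and Slc25a42 to Slc25a16 (0.20 ± 0.20) overlapped between groups.

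**Figure D4:**
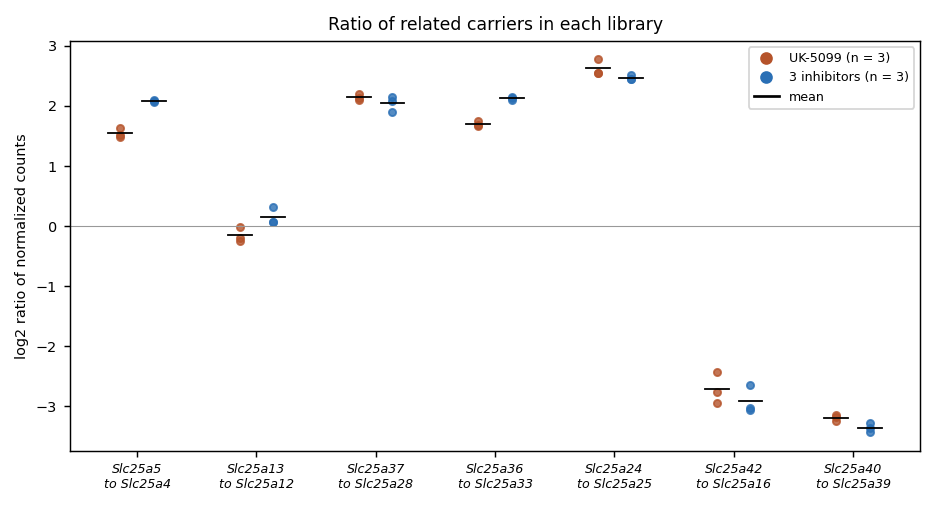
Log2 ratio of normalized counts for 7 pairs of related carriers in each library (y axis), under UK-5099 in orange, the 3 inhibitors in blue and a bar for each mean. The groups are apart for 5 pairs and overlap for Slc25a37 to Slc25a28 and Slc25a42 to Slc25a16.

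Other genes of the same pathways were read from lists set with the design, when earlier results of these data were already known. Of SLC25 proteins with other names, Ucp2, which carries aspartate and other dicarboxylates out of the matrix, stood at 1442 ± 27.8 normalized counts under UK-5099 and 662 ± 36.3 in the other group (SD, n = 3), 2.18-fold higher. Mtch1, an insertase of the outer membrane, was 1.44-fold lower (2150 ± 45.1 against 3090 ± 33.0). Mtch2 did not pass, and Ucp1 and Ucp3 were below the filter, Ucp1 at 0 in the UK-5099 libraries and 6.67 ± 1.97 in the others. In the import route of the carriers, 8 of 13 genes were higher and 1 lower, with a median log2 fold change of 0.23. That was 69.2% called, against 53.8% of all genes tested, of which 27.2% were higher and 26.6% lower. Tomm70a, the receptor that recognises carrier precursors, stood at 4726 ± 127 normalized counts under UK-5099 and 3086 ± 10.6 in the other group, 1.53-fold higher, with Tomm20 1.40-fold and the pore subunit Tomm40 1.34-fold higher. Timm29, a subunit of the TIM22 complex chosen after its value was seen, was the 1 lower gene (1.33-fold). The higher count of this list was 6 after rescaling or centring and at a threshold of 0.01. It was also 6 without UK-5099 replicate 1 or 3-inhibitor replicate 3.

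Enzymes that work with the carriers were mixed. Of all genes tested 27.2% were higher and 26.6% lower, 53.8% in all. The share called was 83.3% for shuttle enzymes, 50% for citrate, 75% for glutamine and proline and 71.4% for one-carbon enzymes. It was 40% for iron-sulphur and haem genes, 100% for outer-membrane channels and 60% for other inner-membrane transporters. No list was tested as a set. Among 6 tested shuttle enzymes 3 were higher and 2 lower, and Gpd1l, a relative of the cytosolic glycerol-3-phosphate dehydrogenase, was 3.98-fold lower (569 ± 16.3 against 2269 ± 94.6 normalized counts). Gpd2, the mitochondrial enzyme of that shuttle, was 1.21-fold higher and Got2, the mitochondrial aspartate aminotransferase, 1.16-fold higher. The lower count was 1 without 3-inhibitor replicate 1 or 2 and at a threshold of 0.01. For these enzymes the higher count was 2 after rescaling or centring and 4 without UK-5099 replicate 3. Of 6 genes of citrate formation and use, 2 were higher, Acaca (1.32-fold) and Acly (1.22-fold), which carry citrate carbon into fatty acids, and citrate synthase, Cs, was 1.14-fold lower. After rescaling or centring 2 were higher and 3 lower, and 2 were lower without UK-5099 replicate 3. In glutamine and proline metabolism 6 of 8 were higher and none lower, among them Oat (1.46-fold), which makes and uses ornithine, and the proline-forming Pycr1 (1.76-fold). This count became 4 higher and 2 lower after rescaling or centring, and 1 was lower without UK-5099 replicate 3. Of 7 tested mitochondrial one-carbon enzymes 5 were higher and none lower, among them Mthfd2 (1.24-fold), Mthfd1l (1.26-fold) and Gcsh (1.29-fold). After rescaling or centring 3 were higher. Of 10 genes of iron-sulphur and haem synthesis 2 were higher and 2 lower, and the higher count ranged from 0 to 2 and the lower from 1 to 3 over the alternatives. No gene of this list was higher after rescaling or centring, without the trend, at a threshold of 0.01, or without UK-5099 replicate 1 or 3-inhibitor replicate 2 or 3. Only 1 was higher with no low filter, with the replicate block, and without UK-5099 replicate 2 or 3-inhibitor replicate 1. Alas1, the first enzyme of haem synthesis, was 1.52-fold lower, Cpox had 0.13 and Isca1 -0.16. The calls of Cpox and Isca1 each ended in several alternatives, with adjusted p up to 0.432 and 0.149. The outer-membrane channels Vdac1 and Vdac3 were 1.15-fold and 1.22-fold higher and Vdac2 was 1.20-fold lower. Of 15 other inner-membrane transporters, 2 were higher and 7 lower. The lower count was 4 without UK-5099 replicate 1 or 3-inhibitor replicate 1 and at a threshold of 0.01. The higher count was 0 after rescaling or centring, without the trend and at a threshold of 0.01. It was also 0 without UK-5099 replicate 1 or 3-inhibitor replicate 2 or 3. It was 1 with no low filter or without UK-5099 replicate 2, and 3 without UK-5099 replicate 3. Slc8b1, which exchanges sodium for calcium, was 1.59-fold lower and the sideroflexin Sfxn3 1.28-fold lower.

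The carriers had more members lower than higher, as did the other inner-membrane transporters (2 higher and 7 lower, median log2 fold change -0.11), and the iron-sulphur and haem genes were even. Among all genes tested 27.2% were higher and 26.6% lower, against 22.0% and 36.6% of the carriers. Larger lists of mitochondrial genes had more higher than lower. Of 82 mitochondrial ribosomal protein genes 48 were higher and 1 lower, of 42 nuclear complex I genes 22 and 3, and of 22 translocase genes 14 and 1. Their median log2 fold changes were 0.21, 0.19 and 0.24, against -0.08 for the carriers. The translocase list holds every gene of the carrier import list but Agk, Timm29 included, so these lists are not separate. Of 168 tested genes of other SLC families, 29 were higher and 71 lower, and the median was -0.16. After centring, the counts were 32 higher and 2 lower for the ribosomal proteins, 14 and 4 for complex I, 11 and 1 for the translocases and 23 and 83 for the other SLC genes. No test was made of the difference between lists.

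**Figure D5:**
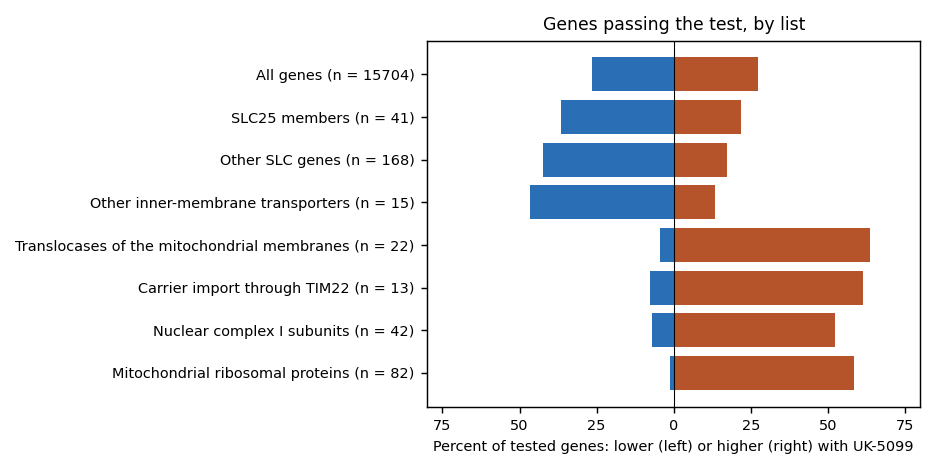
Percent of tested genes that were lower (blue, left) or higher (orange, right) under UK-5099 at an adjusted p under 0.05 (limma), for all genes, the SLC25 members and 6 other lists, with the number tested beside each name. SLC25 members (15 lower and 9 higher of 41), other SLC genes and other inner-membrane transporters lean to the left, and the other mitochondrial lists lean to the right. The translocase and carrier import lists share most of their genes.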

How the data were processed

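RNA from 6 libraries of mouse airway basal cells was sequenced. HISAT2 2.1.0, DESeq2 1.36.0 and the build GRCm39 are listed in the submitters' processing notes with no roles, while how reads were counted, and on which annotation, is not given in the sources used here. What the authors deposited is other than plain counts: log2 of normalized gene counts, in which each library's reads carry 1 common factor and zeros stand as a text error. Powers of 2 were taken, zeros restored, and 359 of 57107 entries dropped because they repeated an identifier with equal values. Division by the worth of 1 read gave reads that were whole to within 0.02 for 99.99% of the nonzero values in each library.

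The 15704 genes averaging 10 or more normalized counts went into a limma 3.58.1 fit (R 4.3.3) of log2(normalized count + 1) (eBayes with a trend, two-sided, no covariates, Benjamini-Hochberg over all genes, threshold 0.05). Counts carry SDs, and log2 fold changes carry the fit's standard errors. The fit was also run on simulated data in which few genes changed and all had the same dispersion. That setting is unlike these data, so it does not show how well the fit holds here. Members and gene lists were chosen with earlier results of these data known. Members called with at least 1.5-fold, and Slc25a1, Slc25a3, Slc25a4, Slc25a5, Slc25a12 and Slc25a13, are given in every library, other tested members by log2 fold change, and up to 3 called genes per partner list by smallest adjusted p. The results of a few genes are left out of the text and figures. The settings varied were the scaling (upper quartile, or centring by the median), the filter (none, or a mean of 50), the pseudocount (0.5 or 5), the trend (off, or robust), the threshold (0.01) and the replicate block. Recovered reads were also fitted by limma-voom, and each library was dropped in turn. Promoter sequences are from RefSeq (GRCm38.p6). Other steps used scipy 1.17.1, matplotlib 3.10.9, pandas 2.3.3 and numpy 2.4.6 (Python 3.11.15).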

Additional observations from a re-analysis of the deposited data

How the results depend on the processing

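Over all alternatives the members numbered 6 to 9 higher and 13 to 21 lower, and 6 of the 9 higher and 13 of the 15 lower members kept their direction and their call in each of them. The exceptions were Slc25a40, Slc25a43, Slc25a27, Slc25a25 and Slc25a26. No called member changed sign. Among members that did not pass, the sign turned, without a call, after upper-quartile rescaling and centring for Slc25a5 (-0.044 and -0.046), Slc25a42 (-0.047 and -0.050), Slc25a32 (-0.046 and -0.048) and Slc25a39 (-0.032 and -0.034), a shift of the median of all genes by -0.09. With 1 library left out, values ranged across 0 for Slc25a13 (-0.061 to 0.047), Slc25a42 (-0.057 to 0.128), Slc25a32 (-0.033 to 0.115), Slc25a47 (-0.301 to 0.054) and Slc25a5-ps (-0.086 to 0.249). The cause was not tested. The replicate numbers were not shown to pair the libraries: same-numbered libraries had deviations correlated at -0.017, 0.12 and -0.089, and not every library correlated best with its own number. With the replicate number as a block, 9 members were higher and 15 lower, and 4275 of all genes were higher and 4148 lower, close to the 4275 and 4174 without it. On the recovered reads, limma-voom called 4332 genes higher and 4238 lower, with 9 and 15 members. Members below about 100 normalized counts carry the largest errors, and no ratio of paired carriers could pass a test with 3 against 3 libraries.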
